A study of Mus musculus with 6 samples.

Results

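Glycolysis turns glucose into pyruvate and lactate through a chain of enzymes, and most of its steps are served by several isoenzyme genes whose products differ in kinetics and in the tissues that use them. The genes described here are 31 isoenzymes of that chain together with the carriers that bring glucose in and move lactate across the membrane, the kinases that hold back pyruvate dehydrogenase, and the bifunctional enzymes that set the level of the bisphosphate activator of phosphofructokinase. They were chosen by name, matched through GENCODE M21 symbols, and all 31 were among the 18951 genes of the count table. All 31 had enough reads to be tested. In the newborn heart, muscle is known to lean on glycolysis and to replace embryonic or ubiquitous isoenzymes with muscle isoenzymes as it matures.

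The series measured RNA in primary heart muscle cells from neonatal C57BL/6J mice of 1 day, with 3 libraries of cells that received an siRNA against Rbm22 (si-Rbm22) and 3 of cells that received a scramble siRNA (si-Control). Cells were collected 48 h after transfection, and the labels give their purity as above 97.5% by staining for cardiac troponin T. Rbm22 encodes an RNA-binding protein of the spliceosome, and how its loss alters the transcriptome of these cells is the question that the groups address. The labels speak of biological replicates without mentioning separate isolations, so a p-value here reflects the spread among these libraries, which may be technical. Total counts lay between 36860678 and 37344860 in si-Rbm22 libraries and between 34269042 and 35955301 in libraries labelled si-Control.

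The target and the cell type were checked against the labels first. Rbm22 had 533, 466 and 491 reads in si-Rbm22 libraries, against 798, 916 and 774 reads in libraries labelled si-Control, and fell by 0.78 on the log2 scale (SE 0.097, adjusted p = 4.22e-06, edgeR quasi-likelihood test). Over all genes tested, 38.9% were lower in si-Rbm22 libraries at an adjusted p under 0.05 by the same test. By their markers, the si-Rbm22 libraries held cardiomyocyte transcripts and the other libraries hardly any, against their label. The 14 cardiomyocyte markers summed to 36633, 38759.6 and 24850 CPM (reads scaled to the same library size) in si-Rbm22 libraries, against 52.4, 56.1 and 58.1 CPM in libraries labelled si-Control. Among them Myl2, Myl3, Myl7, Mybpc3, Nppa and Pln had no read in any library labelled si-Control. The 10 skeletal myoblast markers summed to between 63.2 and 83.7 CPM in si-Rbm22 libraries, where Myod1, Myf5, Cdh15 and Cacng1 were at 0, and to between 624 and 636 CPM in libraries labelled si-Control. Nearly all of the si-Rbm22 sum was Myl1, which rose, with 53.8 ± 7.202 CPM in si-Rbm22 libraries and 3.50 ± 0.442 CPM in libraries labelled si-Control (± is the SD over 3 libraries, here and below), and Tnnt1, which was not called, with 22.5 ± 6.26 CPM in si-Rbm22 libraries and 23.6 ± 0.825 CPM in libraries labelled si-Control. The 8 fibroblast markers summed to 5623 to 5804 CPM in si-Rbm22 libraries and 21412 to 23248 CPM in libraries labelled si-Control, sums made up mostly of the collagens Col1a1, Col1a2 and Col3a1. Of these 8, 5 fell, Lum was not called and 2 rose: Dcn, with 443 ± 48.2 CPM in si-Rbm22 libraries and 235 ± 13.1 CPM in libraries labelled si-Control, and Tcf21, with 57.1 ± 7.51 CPM in si-Rbm22 libraries and no read in libraries labelled si-Control. The 6 epicardial and mesothelial markers summed to 1921 to 2130.4 CPM in si-Rbm22 libraries and 50.02 to 53.6 CPM in libraries labelled si-Control, where Upk3b and Upk1b were at 0. The 6 endothelial markers summed to 255 to 299 CPM in si-Rbm22 libraries and 0.461 to 0.744 CPM in libraries labelled si-Control, and the 6 macrophage markers to 70.2 to 82.2 CPM in si-Rbm22 libraries and 1.74 to 3.11 CPM in libraries labelled si-Control. Smooth muscle and pericyte markers summed to 2024 to 2551 CPM in si-Rbm22 libraries and 3090.4 to 3144 CPM in libraries labelled si-Control. Of these 6, Acta2 and Pdgfrb fell, while Tagln, Myh11, Cnn1 and Rgs5 rose. Acta2 had 1247 ± 161 CPM in si-Rbm22 libraries and 2488 ± 47.9 CPM in libraries labelled si-Control. Tagln had 969 ± 94.4 CPM in si-Rbm22 libraries and 116 ± 5.99 CPM in libraries labelled si-Control. These lists separate the groups as completely as the treatment does. The siRNA and the cells in the culture therefore cannot be told apart in any comparison here, that of Rbm22 included. Their part in each result was not tested. In bulk RNA, fewer cells of a type and less RNA per cell cannot be told apart either.

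Promoter sequences are shown for 3 pairs of genes that serve the same step and moved in opposite directions: the phosphoglycerate mutases, the pyruvate dehydrogenase kinases and the bifunctional enzymes. Each window runs from 250 bases before to 50 bases after the RefSeq start on build GRCm38.p6, and is written 5′ to 3′ on the strand of the gene. Capitals mark the core letters of the hypoxia response element, ACGTG or GCGTG on either strand, and in Pgam2 the match to the MEF2 consensus. The windows are Pgam2 (chr11:5803747-5804046, minus strand), Pgam1 (chr19:41911621-41911920, plus strand), Pdk2 (chr11:95041322-95041621, minus strand), Pdk1 (chr2:71872974-71873273, plus strand), Pfkfb3 (chr2:11553880-11554179, minus strand) and Pfkfb4 (chr9:108991652-108991951, plus strand).
Pgam2: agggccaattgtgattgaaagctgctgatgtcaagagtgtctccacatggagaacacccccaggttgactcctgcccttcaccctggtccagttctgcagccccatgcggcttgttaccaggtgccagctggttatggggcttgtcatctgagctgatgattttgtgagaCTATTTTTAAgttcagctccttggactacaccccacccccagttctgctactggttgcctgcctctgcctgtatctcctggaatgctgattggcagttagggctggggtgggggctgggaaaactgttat
Pgam1: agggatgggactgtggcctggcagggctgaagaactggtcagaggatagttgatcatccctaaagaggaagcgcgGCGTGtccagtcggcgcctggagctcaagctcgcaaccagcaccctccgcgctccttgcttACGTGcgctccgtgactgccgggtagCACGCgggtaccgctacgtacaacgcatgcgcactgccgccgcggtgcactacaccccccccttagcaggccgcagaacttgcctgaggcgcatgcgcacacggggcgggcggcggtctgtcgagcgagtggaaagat
Pdk2: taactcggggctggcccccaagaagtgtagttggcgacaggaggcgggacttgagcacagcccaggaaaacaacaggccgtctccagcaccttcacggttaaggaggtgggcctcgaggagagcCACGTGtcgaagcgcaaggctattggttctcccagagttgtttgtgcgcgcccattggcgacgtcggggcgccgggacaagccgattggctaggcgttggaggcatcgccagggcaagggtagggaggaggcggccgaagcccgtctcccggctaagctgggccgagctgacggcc
Pdk1: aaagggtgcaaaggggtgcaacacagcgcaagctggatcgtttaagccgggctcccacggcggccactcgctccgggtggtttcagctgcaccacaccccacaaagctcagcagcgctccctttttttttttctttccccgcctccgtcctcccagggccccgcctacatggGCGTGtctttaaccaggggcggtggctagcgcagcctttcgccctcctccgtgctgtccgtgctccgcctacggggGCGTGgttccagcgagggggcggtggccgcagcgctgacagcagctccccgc
Pfkfb3: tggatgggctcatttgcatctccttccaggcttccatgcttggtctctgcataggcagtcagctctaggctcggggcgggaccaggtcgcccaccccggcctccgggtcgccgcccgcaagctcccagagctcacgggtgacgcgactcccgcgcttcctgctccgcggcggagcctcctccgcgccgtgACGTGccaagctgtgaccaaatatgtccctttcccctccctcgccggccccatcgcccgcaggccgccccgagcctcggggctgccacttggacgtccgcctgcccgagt
Pfkfb4: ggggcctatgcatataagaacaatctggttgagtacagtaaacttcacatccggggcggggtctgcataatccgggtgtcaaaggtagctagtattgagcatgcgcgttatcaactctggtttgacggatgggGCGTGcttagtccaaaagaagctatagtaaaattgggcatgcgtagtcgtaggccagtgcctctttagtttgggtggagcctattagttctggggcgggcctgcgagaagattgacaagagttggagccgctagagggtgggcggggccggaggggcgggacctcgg

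RefSeq windows were found for 29 of the 31 genes, Slc2a3 and Slc2a4 being the others. The hypoxia core letters were in 22 of the 29 windows (75.9%), against 43.8% of all 32851 windows of the same length. The units differ, here and below: each member has 1 chosen window, while all windows include several for some genes. The windows of Pfkfb2 and Ldha lay 13204 and 4328 bases from the GENCODE start of the gene. They did not separate the directions: 6 of 7 genes that rose at least 2-fold and 5 of 7 that fell at least 2-fold held them. In the Pdk2 window the match is the palindrome CACGTG, an E-box that overlaps the core on both strands. That E-box was in 13.8% of the members' windows and 7.15% of all windows. The MEF2 consensus was found in the Pgam2 window alone, 3.45% of the members' windows against 3.19% of all windows. The letters TATAAA were in 6.9% of the members' windows, those of Slc2a1 and Eno2, and in 13.6% of all windows. A match describes these letters only and says nothing of binding.

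Of the 31 genes, 18 rose and 11 fell in si-Rbm22 libraries at an adjusted p under 0.05 (edgeR quasi-likelihood test, Benjamini-Hochberg over 14621 genes). Aldoa and Eno3 did not pass. That share has to be read against the background of the whole table, where 82% of tested genes were called, with 43.1% of tested genes higher and 38.9% lower. At a fitted fold of at least 2 the members gave 9 rises and 7 falls, where 43.1% of all genes tested were called (24.4% higher and 18.7% lower). Their libraries did not overlap between groups for 29 of 31 genes, against 84.2% of all genes tested. The median log2 fold change was 0.29 for the 31 genes and 0.05 for all genes tested. Rises and falls stood side by side within the phosphofructokinase, mutase, lactate dehydrogenase, pyruvate dehydrogenase kinase, lactate carrier and bifunctional enzyme families, as the plot of log2 fold changes by step shows.

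**Figure D1:**
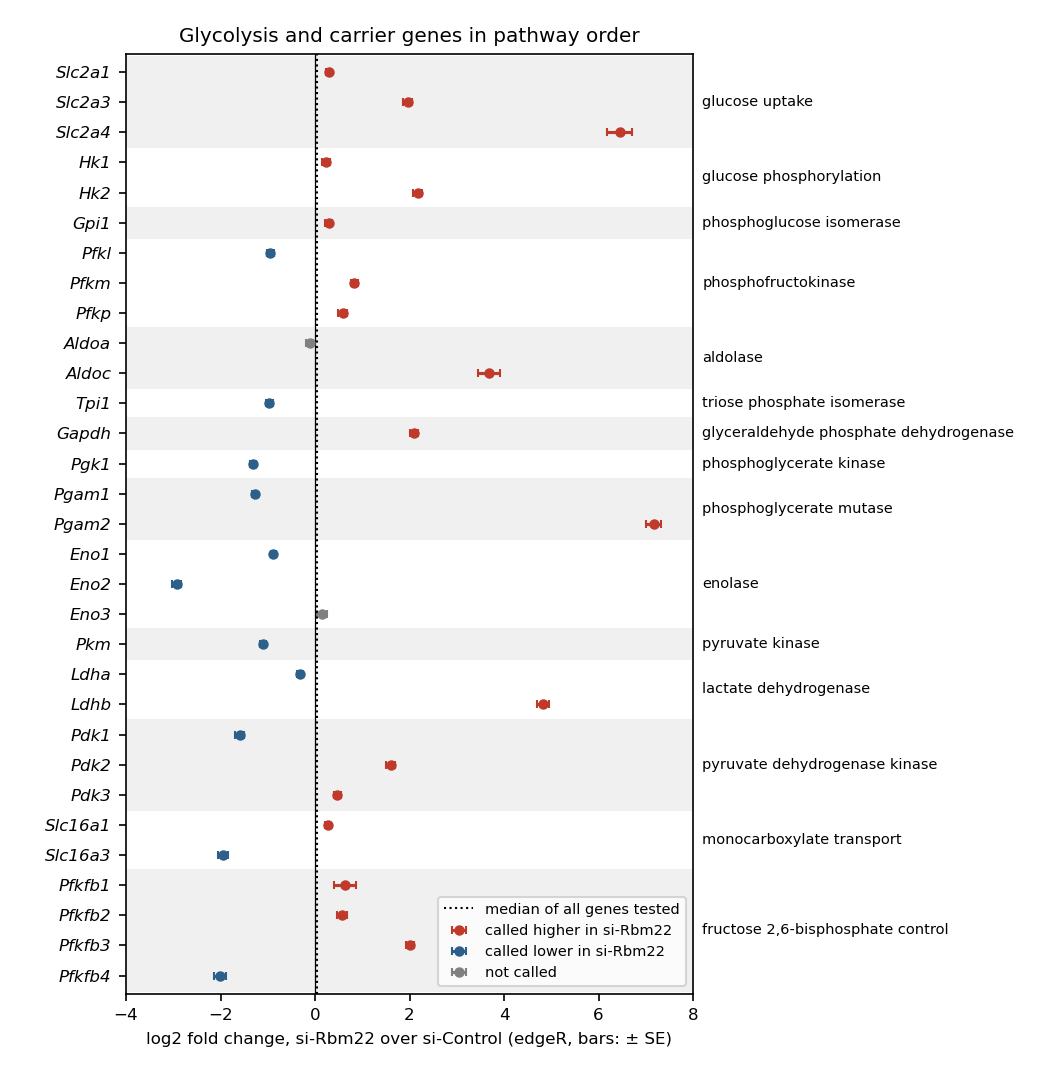
Log2 fold change of each of the 31 genes, si-Rbm22 over si-Control, from the edgeR fit, ordered by step of the pathway; horizontal lines are the SE, grey points were not called, and the dotted line is the median of all genes tested (0.05). Genes to the right of 0 were higher in si-Rbm22 libraries, and the values run from -2.93 (Eno2) to 7.17 (Pgam2).

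Glucose enters heart and muscle cells mainly through the basal carrier GLUT1 (Slc2a1) and the insulin-responsive carrier GLUT4 (Slc2a4), which is typical of muscle and fat. Slc2a4 had 75.1, 74.8 and 48.7 CPM in si-Rbm22 libraries, against 0.552, 0.689 and 1.04 CPM in libraries labelled si-Control. In reads this was 2750, 2692 and 1827 in si-Rbm22 libraries, against 20, 25 and 36 in libraries labelled si-Control. All si-Rbm22 libraries stood far above all libraries labelled si-Control, and replicate 3 was the lowest of the si-Rbm22 libraries. Slc2a4 rose by 6.45 on the log2 scale (SE 0.268, adjusted p = 4.53e-08). Slc2a3, which encodes the high-affinity carrier GLUT3 known from neurons, averaged 26.6 ± 0.448 CPM in si-Rbm22 libraries and 6.82 ± 0.287 CPM in libraries labelled si-Control and rose by 1.96 (SE 0.096). Slc2a1 rose by 0.29 (SE 0.052), with 142 ± 2.96 CPM in si-Rbm22 libraries and 116 ± 1.39 CPM in libraries labelled si-Control. Per kilobase of exon, Slc2a4 made up 29.9% ± 5.11 of the reads on the 3 carriers in si-Rbm22 libraries and 0.639% ± 0.216 in libraries labelled si-Control, while Slc2a1 stayed the largest part in both groups, at 64.2% in si-Rbm22 libraries and 96.6% in libraries labelled si-Control.

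Hexokinase traps glucose inside the cell, Hk1 being the widespread form and Hk2 the insulin-responsive form of striated muscle. Hk2 had 199, 196 and 156 CPM in si-Rbm22 libraries, against 41.6, 43.1 and 37.7 CPM in libraries labelled si-Control, and rose by 2.17 on the log2 scale (SE 0.096, adjusted p = 1.19e-09). The groups did not overlap. Hk1 had 315, 320.3 and 256 CPM in si-Rbm22 libraries, against 264, 254 and 238 CPM in libraries labelled si-Control. Its groups overlapped, since si-Rbm22 replicate 3 lay below si-Control replicate 1. Hk1 rose by 0.24 (SE 0.082, edgeR adjusted p = 0.0170), a call lost when any of 4 libraries was left out, with edgeR adjusted p = 0.0804 without si-Rbm22 replicate 1, 0.0682 without si-Rbm22 replicate 2, 0.0569 without si-Control replicate 2 and 0.107 without si-Control replicate 3. The range over the alternatives was 5.75e-07 to 0.107. The share of Hk2 in hexokinase reads per kilobase was 46.9% ± 0.501 in si-Rbm22 libraries and 18.8% ± 0.632 in libraries labelled si-Control. With the longest transcript of each gene as length, it was 32.5% in si-Rbm22 libraries and 11.2% in libraries labelled si-Control. Gpi1, the isomerase of the next step, averaged 676 ± 72.1 CPM in si-Rbm22 libraries and 552 ± 12.1 CPM in libraries labelled si-Control, and rose by 0.29 (SE 0.072). It has 1 near-identical gene.

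Phosphofructokinase is the committed step of glycolysis, built from the muscle (Pfkm), liver (Pfkl) and platelet (Pfkp) subunits. Pfkl fell, with 124, 132 and 105 CPM in si-Rbm22 libraries against 235, 227 and 231 CPM in libraries labelled si-Control, a log2 fold change of -0.94 (SE 0.076, adjusted p = 7.36e-08). Pfkm rose, with 208, 202 and 164 CPM in si-Rbm22 libraries against 109, 105 and 108 CPM in libraries labelled si-Control, a log2 fold change of 0.83 (SE 0.081, adjusted p = 6.67e-07). No library of either gene crossed into the other group. Pfkp averaged 223 ± 34.4 CPM in si-Rbm22 libraries and 148 ± 2.71 CPM in libraries labelled si-Control, and rose by 0.59 (SE 0.096). Pfkp overlaps the gene Pitrm1, and how the authors' counting treated the overlap is not known. The largest subunit share per kilobase was that of Pfkm in si-Rbm22 libraries (62.3% ± 0.865, with Pfkl at 19.6% ± 0.682) and that of Pfkl in libraries labelled si-Control (44.5% ± 0.165, with Pfkm at 41.3% ± 0.360). The summed level of the 3 subunits overlapped between groups, at 319 ± 34.1 TPM (reads per kilobase of exon, scaled to the same total in each library) in si-Rbm22 libraries and 282 ± 2.48 TPM in libraries labelled si-Control.

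The bifunctional enzymes Pfkfb1 to Pfkfb4 make and break down the bisphosphate that activates phosphofructokinase. Pfkfb3, the form with the highest kinase activity relative to its phosphatase activity, had 53.6, 57.5 and 55.5 CPM in si-Rbm22 libraries, against 12.9, 15.3 and 13.3 CPM in libraries labelled si-Control. Pfkfb4, known from testis and from hypoxic cells, had 4.42, 4.31 and 5.51 CPM in si-Rbm22 libraries, against 19.2, 19.5 and 18.8 CPM in libraries labelled si-Control. Per kilobase, Pfkfb3 was above Pfkfb4 in every si-Rbm22 library and below it in every library labelled si-Control. Pfkfb3 rose by 2.00 on the log2 scale (SE 0.082, adjusted p = 2.38e-11) and Pfkfb4 fell by 2.01 (SE 0.126, adjusted p = 2.43e-09). The heart form Pfkfb2 averaged 16.2 ± 1.72 CPM in si-Rbm22 libraries and 10.9 ± 0.624 CPM in libraries labelled si-Control, a log2 fold change of 0.57 (SE 0.113), and overlaps Gm29427. Pfkfb1, the liver and skeletal muscle form, had the fewest reads of the family, at 3.40 ± 0.709 CPM in si-Rbm22 libraries and 2.19 ± 0.0640 CPM in libraries labelled si-Control. Its log2 fold change of 0.64 (SE 0.237, edgeR adjusted p = 0.0234) was no longer called without si-Rbm22 replicate 3 (edgeR adjusted p = 0.131) or without si-Control replicate 1 (0.0584), 2 (0.0695) or 3 (0.0532), in a range over the alternatives of 0.0146 to 0.131. Pfkfb3 held 64.5% ± 1.26 of the family's reads per kilobase in si-Rbm22 libraries and 23.4% ± 1.63 in libraries labelled si-Control, and Pfkfb4 held 8.54% ± 1.12 in si-Rbm22 libraries and 50.3% ± 0.627 in libraries labelled si-Control.

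**Figure D2:**
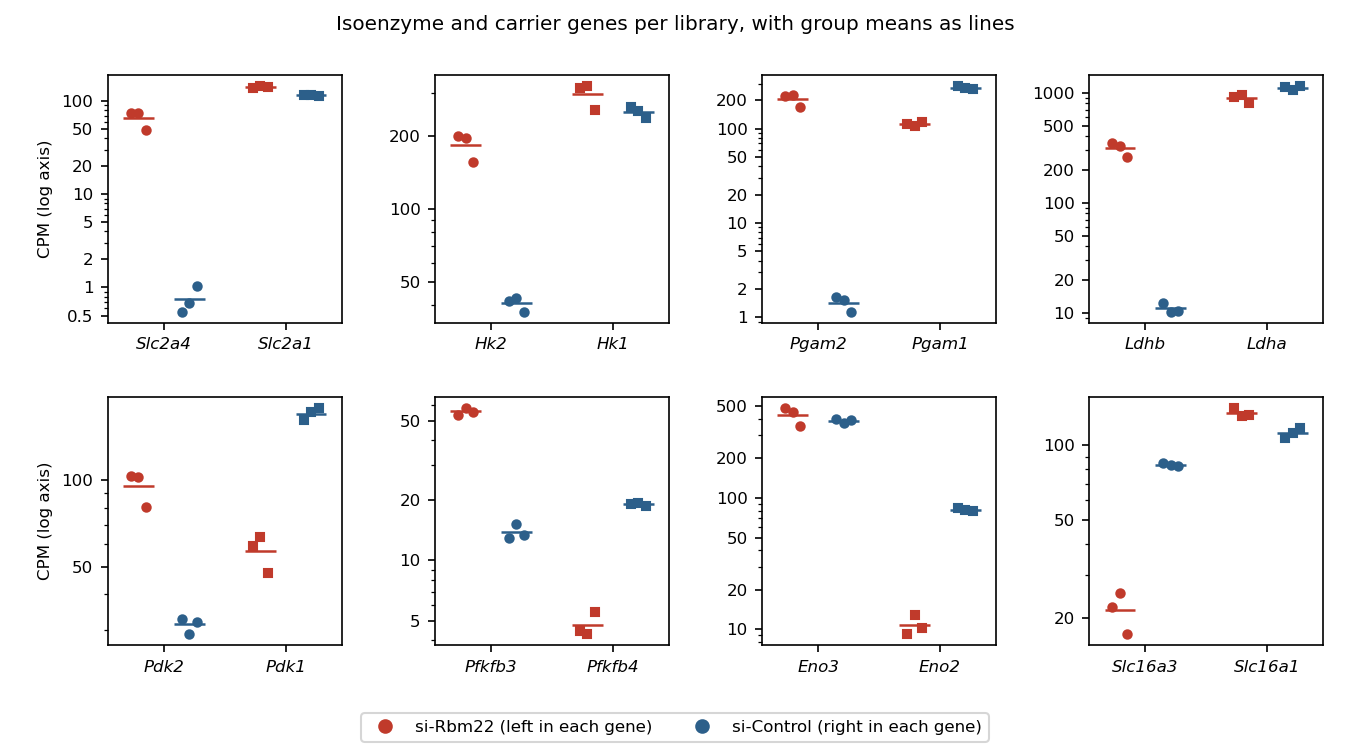
CPM of 16 genes in each of the 6 libraries, on log axes, with 8 families as panels; points are libraries, lines are group means, and si-Rbm22 stands left of si-Control in each gene. Pgam2, Slc2a4 and Ldhb are the genes with the widest gaps, and Eno3 is the gene whose groups overlap besides Hk1.

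The middle of the pathway, which splits the sugar and begins to yield energy, held both directions. Aldoa, the muscle aldolase, had 1210.4, 1242 and 1031 CPM in si-Rbm22 libraries, against 1268, 1251 and 1248 CPM in libraries labelled si-Control. The groups lay apart, yet its log2 fold change of -0.11 (SE 0.069) was not called (edgeR adjusted p = 0.143). Without si-Rbm22 replicate 2 its edgeR adjusted p was 0.0410, and with no scaling beyond the column total it was 0.0490, in a range over the alternatives of 0.0410 to 0.423. Aldoc, the brain aldolase, averaged 10.2 ± 1.92 CPM in si-Rbm22 libraries and 0.790 ± 0.212 CPM in libraries labelled si-Control and rose by 3.69 (SE 0.234), while it made up 0.779% of aldolase reads per kilobase in si-Rbm22 libraries and 0.0560% in libraries labelled si-Control (0.487% in si-Rbm22 libraries and 0.0349% in libraries labelled si-Control with the longest transcript as length). Tpi1, the triose phosphate isomerase, fell by 0.97 (SE 0.067), with 433 ± 35.2 CPM in si-Rbm22 libraries and 845 ± 33.4 CPM in libraries labelled si-Control. It has 1 near-identical gene.

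Gapdh had 362, 357 and 294 CPM in si-Rbm22 libraries, against 78.9, 76.6 and 82.2 CPM in libraries labelled si-Control, and rose by 2.09 on the log2 scale (SE 0.079, adjusted p = 2.37e-11). Its value is uncertain, because 78 annotated genes are near-identical to it (at least 95% over at least 200 bases) and reads that fit several genes may have been left out or split by the authors' counting. The next enzyme, Pgk1, which makes ATP, had 494, 506 and 444 CPM in si-Rbm22 libraries, against 1176, 1156 and 1268 CPM in libraries labelled si-Control. It fell by 1.32 (SE 0.065, adjusted p = 1.86e-10), and 4 near-identical genes are annotated for it. The levels of Gapdh and Pgk1 per kilobase, which serve neighbouring steps, stood at 284 ± 25.8 and 745 ± 32.8 TPM in si-Rbm22 libraries and at 69.4 ± 1.85 and 1934 ± 81.1 TPM in libraries labelled si-Control.

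Phosphoglycerate mutase showed the widest change in isoform. Pgam2, the muscle gene (ENSMUSG00000020475, GRCm38 chr11:5801640-5803733), had 221, 229 and 169.6 CPM in si-Rbm22 libraries, against 1.63, 1.52 and 1.15 CPM in libraries labelled si-Control. Its reads numbered 8109, 8236 and 6369 in si-Rbm22 libraries, against 59, 55 and 40 in libraries labelled si-Control. Every si-Rbm22 library was far above every library labelled si-Control, and the log2 fold change was 7.17 (SE 0.163, adjusted p = 1.84e-11), a 144-fold difference. Pgam1, the form of brain and most other tissues (ENSMUSG00000011752, chr19:41911923-41918660), had 111, 107 and 117 CPM in si-Rbm22 libraries, against 281, 267 and 265 CPM in libraries labelled si-Control. It fell by 1.28 (SE 0.058, adjusted p = 7.29e-11), without overlap, and has 1 near-identical gene. Pgam2 made up 81.1% ± 3.28 of mutase reads per kilobase in si-Rbm22 libraries and 1.23% ± 0.184 in libraries labelled si-Control. The cardiomyocyte markers given above separated the same libraries.

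Enolase and pyruvate kinase close the chain. Eno1, the ubiquitous enolase, had 700.1, 719 and 746 CPM in si-Rbm22 libraries, against 1354, 1295 and 1341 CPM in libraries labelled si-Control, and fell by 0.88 (SE 0.055). Eno2, the neuronal enolase, had 9.26, 12.8 and 10.2 CPM in si-Rbm22 libraries, against 83.3, 81.4 and 80.0 CPM in libraries labelled si-Control. It was the member with the largest fall of the 31 genes, -2.93 on the log2 scale (SE 0.099, adjusted p = 8.41e-12). The muscle enolase Eno3 had 481, 455 and 355 CPM in si-Rbm22 libraries, against 399, 374 and 392 CPM in libraries labelled si-Control. These values overlapped, and its log2 fold change of 0.15 (SE 0.097) was not called (edgeR adjusted p = 0.177). Without si-Rbm22 replicate 3 the log2 fold change was 0.26 and the call was made (edgeR adjusted p = 1.79e-05), in a range over the alternatives of 1.79e-05 to 0.626.

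The reads on Eno1 may be split with its near-identical gene Eno1b, which is listed as a gene of its own. Eno1b had 438, 455 and 479 reads in si-Rbm22 libraries, against 15765, 14651 and 14676 reads in libraries labelled si-Control, and its log2 fold change was -5.08 (SE 0.068, adjusted p = 3.83e-16). The log2 ratio of Eno1b to Eno1 reads was -5.86 ± 0.024 in si-Rbm22 libraries and -1.66 ± 0.022 in libraries labelled si-Control, so the groups differed in how reads were divided between these copies by far more than the spread between libraries. Eno3 made up 64.2% ± 4.46 of enolase reads per kilobase of merged exons in si-Rbm22 libraries and 45.8% ± 0.254 in libraries labelled si-Control. With the longest transcript of each gene as length, Eno3 made up 43.2% in si-Rbm22 libraries and 26.6% in libraries labelled si-Control. By that length Eno1 was the larger part in si-Rbm22 libraries, at 56.2%. With Eno1b added to Eno1, Eno3 made up 63.1% in si-Rbm22 libraries and 31.4% in libraries labelled si-Control.

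Pkm encodes different forms of pyruvate kinase through a choice of exons, which gene counts do not resolve. It was the member with the most reads, at 2125, 2156 and 2026 CPM in si-Rbm22 libraries, against 4634, 4366 and 4529.8 CPM in libraries labelled si-Control. Pkm fell by 1.10 on the log2 scale (SE 0.056, adjusted p = 2.66e-10), without overlap, and it overlaps Gm49759 and has 1 near-identical gene. Of 6 factors known for the choice of its exons, 3 rose, 1 fell and 2 were not called, so 66.7% were called, against 82% of all genes tested, and the median log2 fold change was 0.11. Ptbp1, which favours the proliferative exon, rose by 0.21 (SE 0.058), and Rbm4, known for the other choice, rose by 1.09 (SE 0.255) with 174, 139 and 115 reads in si-Rbm22 libraries and 70, 76 and 50 reads in libraries labelled si-Control. Nek2 fell by 0.76 (SE 0.077).

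**Figure D3:**
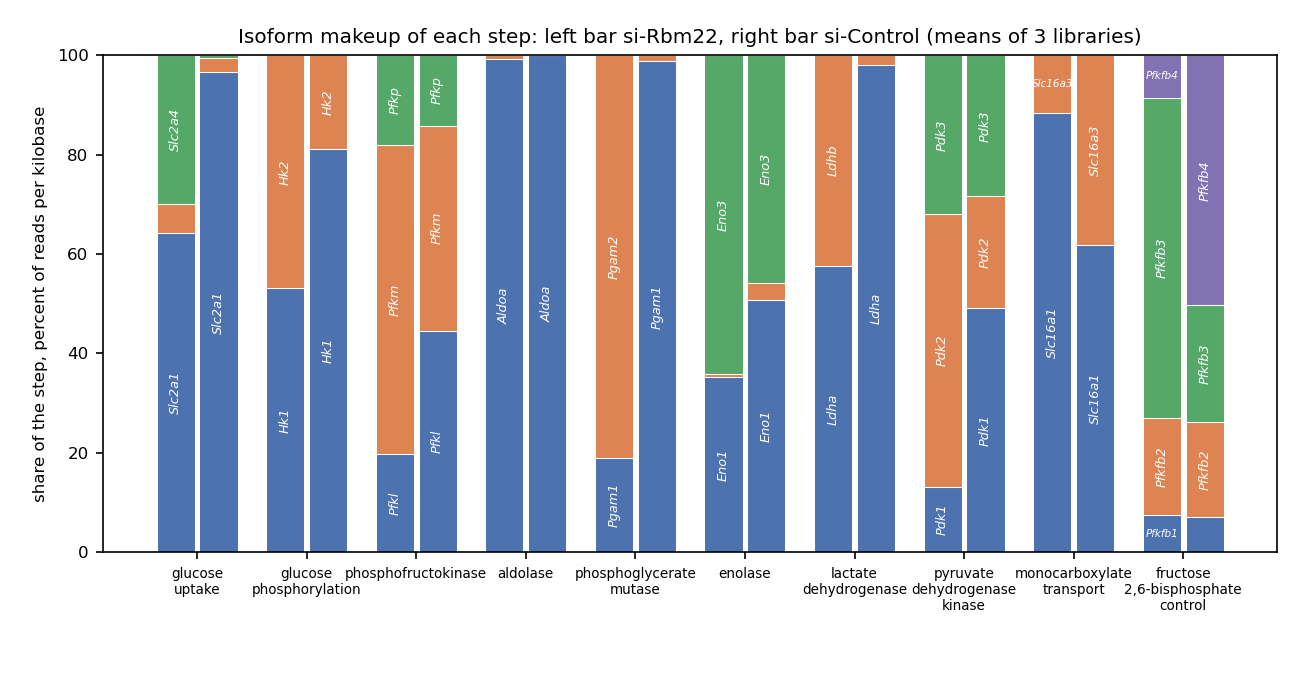
Share of each isoenzyme or carrier in the reads per kilobase of its step, in percent, as means of 3 libraries, for 10 steps; the left bar of each pair is si-Rbm22 and the right bar si-Control. The largest segment differs between the bars for phosphofructokinase, phosphoglycerate mutase, pyruvate dehydrogenase kinase, the bifunctional enzymes and, with merged exons as length but not with the longest transcript, enolase.

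Lactate dehydrogenase is a tetramer of A subunits (Ldha), typical of skeletal muscle, and B subunits (Ldhb), typical of heart. Ldhb (ENSMUSG00000030246, GRCm38 chr6:142490249-142507957) had 348, 329 and 258 CPM in si-Rbm22 libraries, against 12.2, 10.3 and 10.4 CPM in libraries labelled si-Control. It rose by 4.83 on the log2 scale (SE 0.128, adjusted p = 6.47e-11), a 28.4-fold difference with no overlap. Ldha had 904, 943 and 813 CPM in si-Rbm22 libraries, against 1122, 1048 and 1142 CPM in libraries labelled si-Control, and fell by 0.32 (SE 0.065, adjusted p = 0.000461). Near-identical genes number 4 for Ldha and 1 for Ldhb. Ldhb made up 42.4% ± 2.34 of the subunit reads per kilobase in si-Rbm22 libraries and 2.05% ± 0.180 in libraries labelled si-Control, and Ldha was the larger part in both. With the longest transcript as length, Ldhb made up 32.7% in si-Rbm22 libraries and 1.36% in libraries labelled si-Control.

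Lactate leaves or enters the cell through the monocarboxylate carriers MCT1 (Slc16a1) and MCT4 (Slc16a3), the second being typical of cells that export much lactate. Slc16a3 had 22.1, 25.4 and 17.3 CPM in si-Rbm22 libraries, against 84.8, 83.1 and 82.4 CPM in libraries labelled si-Control, and fell by 1.95 (SE 0.112, adjusted p = 1.72e-08). Slc16a1 had 141, 132 and 133 CPM in si-Rbm22 libraries, against 107, 112 and 117 CPM in libraries labelled si-Control, and rose by 0.27 (SE 0.058, adjusted p = 0.000680). Neither gene overlapped between groups. Slc16a3 made up 11.7% ± 2.02 of their reads per kilobase in si-Rbm22 libraries and 38.3% ± 1.50 in libraries labelled si-Control. The chaperone of these carriers, basigin (Bsg), fell by 0.31 (SE 0.060), and the related embigin (Emb) fell by 1.09 (SE 0.090).

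Pyruvate dehydrogenase kinases block the entry of pyruvate into the citric acid cycle. Pdk1, a known target of hypoxia signalling, had 58.9, 63.1 and 47.3 CPM in si-Rbm22 libraries, against 161, 172 and 177 CPM in libraries labelled si-Control, and fell by 1.59 (SE 0.094, adjusted p = 1.81e-08). Pdk2, abundant in heart, had 104, 102 and 80.8 CPM in si-Rbm22 libraries, against 33.0, 29.2 and 32.2 CPM in libraries labelled si-Control, and rose by 1.60 (SE 0.095, adjusted p = 9.29e-09). Per kilobase, Pdk2 was above Pdk1 in every si-Rbm22 library and below it in every library labelled si-Control. Pdk3 averaged 44.8 ± 2.57 CPM in si-Rbm22 libraries and 32.4 ± 2.31 CPM in libraries labelled si-Control and rose by 0.47 (SE 0.076). Pdk2 held 54.8% ± 3.47 of the reads per kilobase of these 3 kinases in si-Rbm22 libraries and 22.4% ± 1.54 in libraries labelled si-Control, and Pdk1 held 13.2% ± 0.970 in si-Rbm22 libraries and 49.2% ± 2.10 in libraries labelled si-Control. Pdk4, the kinase of fasting muscle and not among the 31 genes, rose by 0.75 (SE 0.065).

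The ratio of 2 isoenzymes within a library does not depend on library scaling, so 17 pairs were compared as log2 ratios of reads. In all 17 the libraries of the groups did not overlap, with 9 ratios higher and 8 lower in si-Rbm22 libraries. Among single genes, 84.2% of all genes tested did not overlap either, and the share for other pairs of genes was not computed. Several pairs share a gene, such as Slc2a1, Pdk1 or Pfkfb3, so the 17 are not separate results. Each pair gave the smallest two-sided p that an exact permutation test of 3 against 3 libraries can give, 0.1, and 0.1 after adjustment over the 17 pairs, so no pair can pass 0.05 in this design. The log2 ratio of Pgam2 to Pgam1 was 0.87 ± 0.300 in si-Rbm22 libraries and -7.56 ± 0.227 in libraries labelled si-Control, a difference of 8.44. For Slc2a4 to Slc2a1 it was -1.13 ± 0.366 in si-Rbm22 libraries and -7.28 ± 0.469 in libraries labelled si-Control, a difference of 6.15. Ldhb to Ldha differed by 5.14, Aldoc to Aldoa by 3.81, Pdk2 to Pdk1 by 3.20, Pdk3 to Pdk1 by 2.07, Hk2 to Hk1 by 1.93, Slc2a3 to Slc2a1 by 1.67 and Eno3 to Eno1 by 1.02.

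The ratios that were lower in si-Rbm22 libraries were led by Pfkfb4 to Pfkfb3, at -3.55 ± 0.206 in si-Rbm22 libraries and 0.47 ± 0.115 in libraries labelled si-Control, a difference of -4.03. Slc16a3 to Slc16a1 differed by -2.23, Eno2 to Eno1 by -2.06, Pfkl to Pfkm by -1.78 and Pfkl to Pfkp by -1.53. Pfkfb2 to Pfkfb3 differed by -1.44, Pfkfb1 to Pfkfb3 by -1.39 and Pfkp to Pfkm by -0.25, the smallest difference of the 17. The cardiomyocyte markers separated the same libraries as all 17 ratios. They summed to between 24850 and 38759.6 CPM in si-Rbm22 libraries and between 52.4 and 58.1 CPM in libraries labelled si-Control. With Eno1b added to Eno1, the difference was 1.39 for Eno3 and -1.68 for Eno2.

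**Figure D4:**
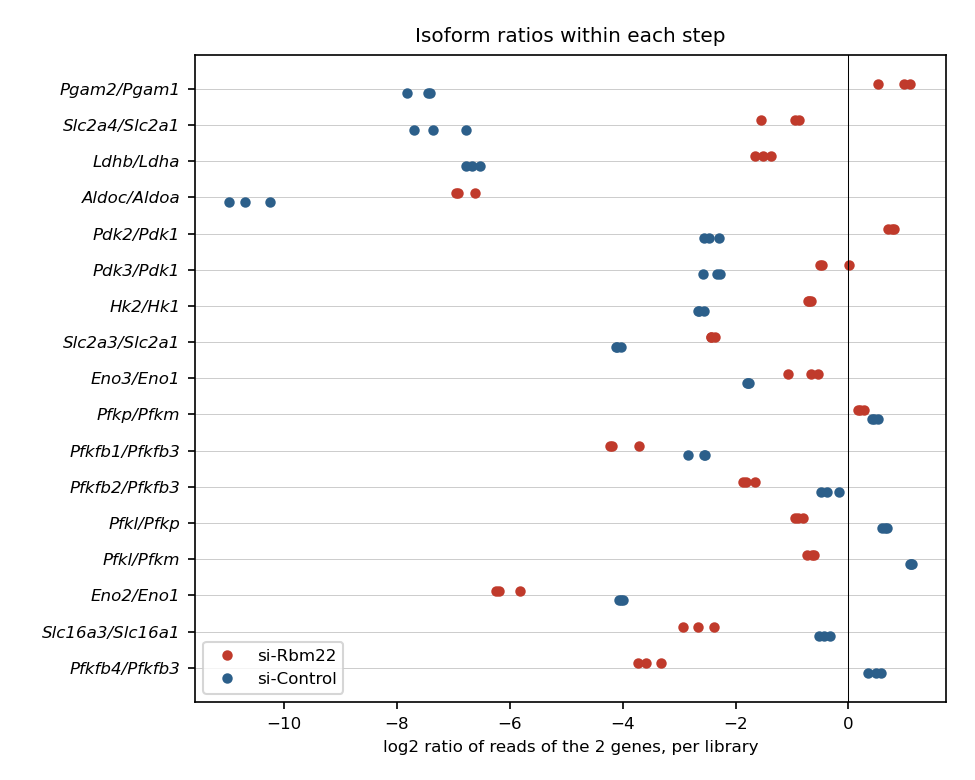
Log2 ratio of reads for 17 isoenzyme or carrier pairs in each library; points are libraries, with si-Rbm22 drawn above si-Control in each pair. The groups lie apart in every pair, by 8.44 for Pgam2 to Pgam1 and by -0.25 for Pfkp to Pfkm.

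Summed over the isoenzymes of a step, the level per kilobase was not uniformly higher or lower along the pathway. The mutase step stood at 1051 ± 102 TPM in si-Rbm22 libraries and 501 ± 17.3 TPM in libraries labelled si-Control, with Pgam1 falling and Pgam2 rising within it. Glucose uptake stood at 219 ± 9.98 TPM in si-Rbm22 libraries and 124 ± 1.74 TPM in libraries labelled si-Control, hexokinase at 228 ± 23.7 TPM in si-Rbm22 libraries and 132 ± 7.67 TPM in libraries labelled si-Control, and lactate dehydrogenase at 1619.99 ± 136 TPM in si-Rbm22 libraries and 1232 ± 43.9 TPM in libraries labelled si-Control. Pyruvate kinase was lower, at 1462 ± 12.9 TPM in si-Rbm22 libraries and 3263 ± 78.4 TPM in libraries labelled si-Control, as was enolase at 1334 ± 92.9 TPM in si-Rbm22 libraries and 1765 ± 35.3 TPM in libraries labelled si-Control. The enolase sum leaves out Eno1b, at 23.1 ± 1.12 TPM in si-Rbm22 libraries and 811 ± 25.3 TPM in libraries labelled si-Control. The sums of phosphofructokinase alone overlapped between the groups among the 15 steps. Reads on all 31 genes were 0.973%, 0.972% and 0.891% of counted reads in si-Rbm22 libraries, against 1.33%, 1.28% and 1.33% in libraries labelled si-Control, a difference of -0.369 percentage points (two-sided exact permutation test, p = 0.1, the smallest this design can give). With mitochondrial and cardiomyocyte marker genes left out of the total, the difference was -0.306 percentage points. This sum weighs genes by their reads. Pkm, with the most reads, averaged 2102 CPM in si-Rbm22 libraries and 4510 CPM in libraries labelled si-Control, while 18 of the 31 genes rose.

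The si-Rbm22 libraries varied more among themselves than libraries labelled si-Control. The median coefficient of variation of the 31 genes was 11.9% in si-Rbm22 libraries and 3.95% in libraries labelled si-Control, and over all genes tested it was 8.71% in si-Rbm22 libraries and 5.64% in libraries labelled si-Control. Replicate 3 was the lowest of the si-Rbm22 libraries for 21 of the 31 genes (67.7%), against 37.4% of all genes tested and 12 of the 14 cardiomyocyte markers (85.7%). Its ratio to the mean of replicates 1 and 2 ran from 0.649 for Slc2a4 to 1.40 for Pfkfb1, and was 0.754 for Pgam2, 0.762 for Ldhb and 0.759 for Eno3. The median log2 ratio of replicate 3 to the others was -0.25 for the 31 genes, -0.44 for the cardiomyocyte markers and -0.00 for all genes tested. The ratio to replicates 1 and 2 was above 1 for Pgam1 (1.08), Eno1 (1.05), Slc2a1 (1.01), Pdk3 (1.09), Pfkfb4 (1.26) and Pfkfb1. The part of the cardiomyocyte transcripts in this spread was not tested.

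Neighbouring pathways were described by their counts and medians. Of 11 genes for pyruvate entry into mitochondria, 9 rose and 2 fell, so 100% were called, against 82% of all genes tested (43.1% higher and 38.9% lower), and the median log2 fold change was 1.03, against 0.05. Pdhx and Pdhb, subunits of pyruvate dehydrogenase, rose by 1.41 (SE 0.074) and 1.40 (SE 0.075). The phosphatase Pdp1 fell by 0.98 (SE 0.075) and pyruvate carboxylase (Pcx) by 0.68 (SE 0.073). Of 21 glycogen genes tested, 13 rose, 2 fell and 6 were not called, so 71.4% were called, fewer than the 82% of all genes tested, and the median was 0.92. The muscle glycogen phosphorylase Pygm had 447 ± 69.5 CPM in si-Rbm22 libraries and 2.64 ± 0.325 CPM in libraries labelled si-Control, a log2 fold change of 7.40 (SE 0.149). The phosphatase subunit Ppp1r3c, which promotes glycogen synthesis, rose by 3.45 (SE 0.121). Phkb, a subunit of the kinase that activates phosphorylase, fell by 1.73 (SE 0.068), and the phosphoglucomutase Pgm2 fell by 0.60 (SE 0.082).

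Of 18 tested paralogs and bypass enzymes of glycolysis, 10 rose, 7 fell and 1 was not called (94.4% called, against 82% of all genes tested), and the list's median log2 fold change was 0.95. Gpd1, the glycerol phosphate dehydrogenase of the cytosol, had 1484, 1213 and 1292 reads in si-Rbm22 libraries, against 11, 15 and 14 reads in libraries labelled si-Control. Tigar, a phosphatase that lowers the activator of phosphofructokinase, rose by 2.99 (SE 0.098). Eno1b and Emb, given above, were the falls with the smallest p.

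**Figure D5:**
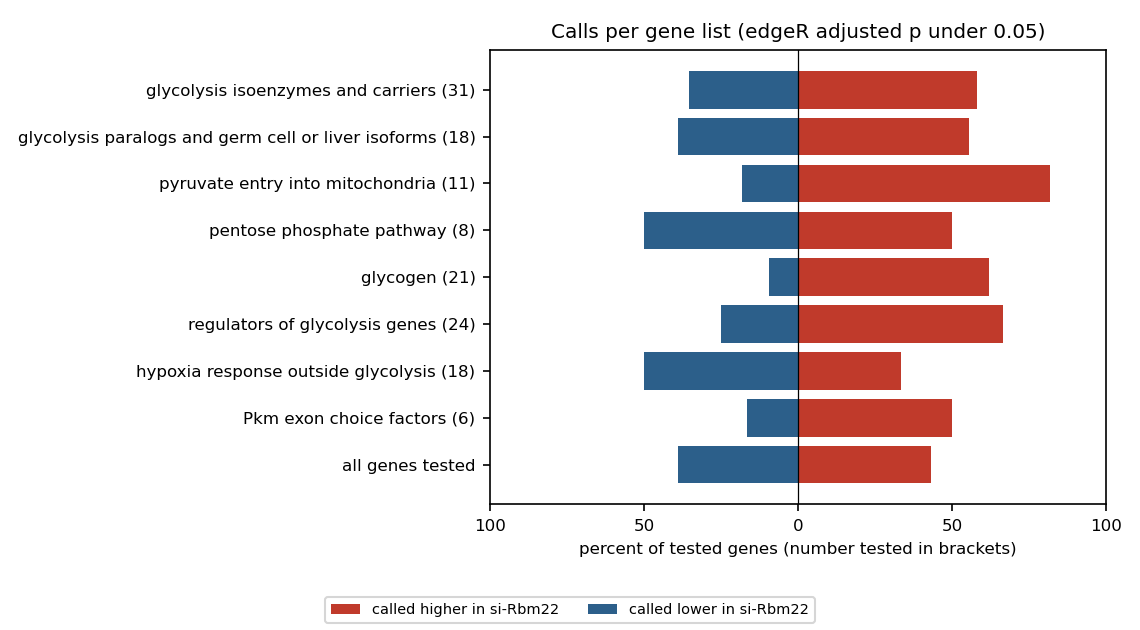
Percent of tested genes called higher (right) and lower (left) in si-Rbm22 libraries in each list, with the number tested in brackets, and over all genes tested in the lowest bar. The 31 genes described here were called higher in 18 and lower in 11 cases, and the background bar stands at 43.1% higher and 38.9% lower.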

How the data were processed

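RNA was sequenced from 6 libraries of transfected heart cells, 3 in each group, and the groups come from the sample titles. The deposited values are whole-number read counts per Ensembl gene, with column totals that differ. They were taken as not normalized because they are whole numbers. Per the submitters' processing notes, fastp, HISAT2, HTSeq, DESeq2 and the build GRCm38 were used. The sources used here do not give their roles, versions or settings, the annotation release or the use of strand. Symbols, positions and exon lengths came from GENCODE M21, which matched 18868 of 18951 identifiers.

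Counts were scaled by TMM, filtered with filterByExpr and fitted in edgeR 4.0.16 (R 4.3.3) with group alone in the model, and the robust quasi-likelihood test was used with Benjamini-Hochberg adjustment over 14621 genes and a threshold of 0.05. CPM are TMM-scaled. The SE of a log2 fold change is its size divided by the square root of the F statistic. Levels of different genes were compared as TPM, reads per kilobase of merged exons scaled to the same total in each library. Shares within a step use reads per kilobase, with the longest transcript as length where stated. Ratios of reads, and statements of most or fewest reads, are not scaled by length. Gene length cancels in the difference of a ratio between groups. Isoenzyme ratios are log2 ratios of reads with 0.5 added to each, tested with a two-sided exact permutation test. Near-identical genes were found by aligning transcripts, with a minimum of 95% identity over 200 bases. Promoter windows are RefSeq's on GRCm38.p6, and where a gene had several, the window nearest its GENCODE start was used. The procedure was tested on simulated counts in which few genes changed. In these data 82% of tested genes were called, a setting that the simulation does not cover.

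The 31 genes, the other lists and the rule for named genes were chosen with earlier results of these data known. All 31 genes are given, with the 2 called genes of smallest p in each direction for each other list. Pdk4, Bsg and the single markers named were added after their values were seen. No pair of replicates agreed within sampling noise (chi-square per degree of freedom of 4.52 or more), and each library counted as 1 sample. Leaving out the libraries whose content went against their label could not be tried, since all 3 libraries labelled si-Control are such libraries.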

Additional observations from a re-analysis of the deposited data

How the results depend on the processing

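The counts of the 31 genes called were recomputed under 15 alternatives of the fit: other scaling, other filters, each library left out, the replicate number as a block, DESeq2, limma-voom, and mitochondrial and cardiomyocyte marker genes left out. Members called higher numbered 16 to 18 and members called lower 11 to 12, and no direction reversed. Of 463 values of single members, 452 kept their direction and their side of the threshold. The others belong to Hk1, Pfkfb1, Aldoa and Eno3 and are given with those genes above. A filter of 10 CPM in 3 libraries left out 2 members. The median log2 fold change of all genes was 0.02 to 0.07 under the scalings tried and 0.14 with no filter on low counts. No isoenzyme ratio reversed in 155 repeats. Because no pair overlapped between groups, the repeats that left out a library could not reverse one. With CPM and 0.5 added in place of reads, Slc2a4 to Slc2a1 differed by 5.43 and Aldoc to Aldoa by 3.17. With the longest transcript as length, 35 of 52 isoenzyme shares moved by more than the spread between libraries. Deviations of same-numbered libraries were hardly correlated (-0.0147, 0.0239 and 0.0593), and only for replicate 3 was the best match its own number. Between groups of such different content this cannot show whether the numbers pair the libraries, and the labels do not say. With the replicate block 18 members were called higher and 11 lower. Depth limits Pfkfb1, Aldoc and, in libraries labelled si-Control, Slc2a4 and Pgam2, which rest on few reads there.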

Other observations

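Of 24 genes known to regulate glycolysis, 16 rose, 6 fell and 2 were not called in si-Rbm22 libraries (edgeR quasi-likelihood test). The share called was 91.7%, against 82% of all genes tested (43.1% higher and 38.9% lower), with a median log2 fold change of 0.63 against 0.05 for all genes tested. Mef2c, a muscle transcription factor, had 3908, 3730 and 3296 reads in si-Rbm22 libraries, against 8, 5 and 5 reads in libraries labelled si-Control. Ppargc1a, a coactivator of mitochondrial genes, had 2335, 2271 and 2231 reads in si-Rbm22 libraries, against 9, 10 and 3 reads in libraries labelled si-Control. The prolyl hydroxylase Egln3, itself induced by low oxygen, fell by 1.82 on the log2 scale (SE 0.060), and Txnip, which restrains glucose uptake, fell by 1.21 (SE 0.062).

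Hypoxia response genes outside glycolysis were split: of 18, 6 rose, 9 fell and 3 were not called, and 3 rose and 8 fell at least 2-fold. The share called, 83.3%, was close to the 82% of all genes tested, where 24.4% were higher and 18.7% lower at 2-fold. Ddit4 averaged 42.5 ± 1.79 CPM in si-Rbm22 libraries and 179 ± 6.81 CPM in libraries labelled si-Control, and Bnip3 averaged 29.5 ± 3.47 CPM in si-Rbm22 libraries and 108 ± 5.19 CPM in libraries labelled si-Control (± SD over 3 libraries). Loxl2 rose by 3.84 (SE 0.073) and Adm by 2.71 (SE 0.148). Among the 8 genes of the pentose phosphate pathway, 4 rose and 4 fell (100% called, against 82% of all genes tested), and the median log2 fold change was -0.02. Its first enzyme in the cytosol, G6pdx, fell by 1.39 (SE 0.062) and Pgls by 0.99 (SE 0.068), while H6pd, the enzyme of the endoplasmic reticulum, rose by 0.92 (SE 0.060) and Pgd by 0.66 (SE 0.061). The cell type markers separate the same groups that were compared for these lists, and the part of the markers was not tested.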
